A study of Nothobranchius furzeri with 3 samples.

Results

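The miR-183 cluster is a set of microRNAs (miRNAs), named mir-182, mir-183 and mir-96, that vertebrates transcribe together. Its rows in the small RNA counts of turquoise killifish skin were nfu-mir-182, nfu-mir-183, nfu-mir-96 and nfu-mir-96a, taken by name. They are 4 of the 324 features of the count table and 4 of the 235 that carry a miRNA name. The turquoise killifish, Nothobranchius furzeri, is an annual fish with a very short life. All 3 libraries were made from total RNA of skin of males of strain MZM-04/10p aged 39 weeks, so there is 1 group and no comparison between conditions. The libraries are called 1, 2 and 3 in the order of the sample list. No label says that they are separate fish, so SDs measure only the spread between these samples, which may be technical. The sign-flip p-values given below reflect only the number of these samples and their shared direction, not the size of their spread. Tests that set the counts of single libraries against each other measure counting error only.

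In vertebrates the cluster is known from sensory cells: hair cells of the inner ear and of the lateral line, photoreceptors, olfactory cells and sensory neurons. Fish carry lateral line organs in their skin. A miRNA guides silencing complexes to messenger RNAs that match its seed, the stretch near its 5′ end, and the seeds of the cluster members are related but not identical. Changes in the seed of miR-96 cause hearing loss in humans and mice, and extra or reduced amounts of the cluster miRNAs change hair cell number in zebrafish. Skin was sequenced whole here, so fewer cells that make the cluster and less of it per cell cannot be told apart.

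The cluster took a small share of the skin counts, and its members differed widely in level, with mir-182 above mir-183 and both far above mir-96. How reads that match both mir-96 rows were counted is not known, so the gap to mir-96 may be too wide. The 4 rows together had 6156 of 5021238 counts in library 1, 7255 of 8545292 in library 2 and 10938 of 9590428 in library 3. These are shares of 0.123% in library 1 (95% exact Clopper-Pearson interval 0.120 to 0.126), 0.0849% in library 2 (0.0830 to 0.0869) and 0.114% in library 3 (0.112 to 0.116). The mean share was 0.107% ± 0.0198 (SD, n = 3). The intervals cover counting error only, and those of the 3 libraries did not overlap. Library 2 held the smallest share.

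mir-182, which in human melanoma cells represses FOXO3 and MITF, was the leading member. It had 4925, 6240 and 9215 counts in libraries 1, 2 and 3, equal to 981, 730.2 and 961 counts per 1000000 (CPM). Its level was lowest in library 2, while the 95% intervals of libraries 1 (954 to 1009 CPM) and 3 (941 to 981 CPM) overlapped. The mean was 891 ± 139 CPM (SD, n = 3). It ranked 40, 49 and 43 among the 324 features in the 3 libraries, and 47 by its mean.

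mir-183 was the next member. In human cancer cells it is known to repress ezrin, a linker of membrane and cytoskeleton. It had 1216, 982 and 1670 counts, or 242, 115 and 174 CPM, in libraries 1, 2 and 3. The mean was 177 ± 63.7 CPM (SD, n = 3). It was again lowest in library 2, and it ranked 62, 81 and 69 in libraries 1, 2 and 3. Its lowest library had fewer counts than either other, although library 2 was sequenced more deeply than library 1.

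mir-96 and mir-96a, the members whose mammalian counterpart is tied to deafness, were close to the limit of the depth. mir-96 had 8, 15 and 29 counts in libraries 1, 2 and 3, or 1.59, 1.76 and 3.02 CPM. mir-96a had 7, 18 and 24 counts, or 1.39, 2.11 and 2.502 CPM. Both were detected in every library, with a mean of 2.12 ± 0.783 CPM for mir-96 and 2.001 ± 0.562 CPM for mir-96a (SD, n = 3). A count of 0 would allow up to 3 counts, which is 0.597, 0.351 and 0.313 CPM in libraries 1, 2 and 3. Their ranks lay between 143 and 155 of 324.

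**Figure D1:**
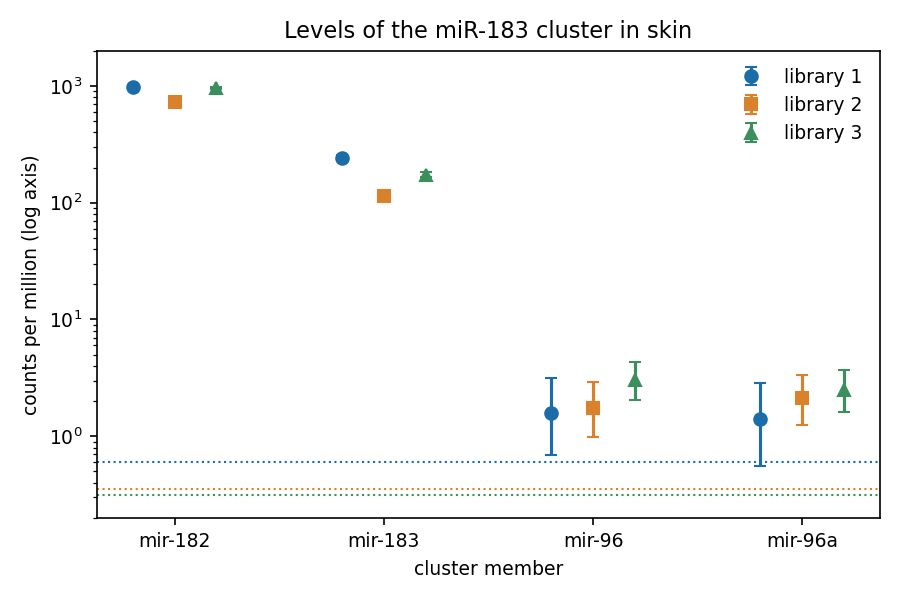
Level of each cluster member in CPM on a log axis, with 1 point for each of the 3 skin libraries and bars for the 95% exact binomial interval (counting error only). Dotted lines give the level that a count of 0 allows in each library; mir-182 sits between 730.2 and 981 CPM, mir-183 between 115 and 242, and both mir-96 rows between 1.39 and 3.02.

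The rows mir-96 and mir-96a had nearly the same counts. The ratio of mir-96 to mir-96a was 1.14 in library 1 (95% interval 0.362 to 3.70), 0.833 in library 2 (0.391 to 1.75) and 1.21 in library 3 (0.679 to 2.17). All 3 intervals include a ratio of 1. The sources used here do not say how a read that matches both rows was counted, so the pair cannot be told apart and is also given as a sum. That sum was 15, 33 and 53 counts in libraries 1, 2 and 3, and it would count a read again if reads were entered in both rows. Intervals and tests that use the sum would then be too narrow. If reads that match both rows were instead left out, both rows and their sum would be too low. The ratios of mir-182 and mir-183 to mir-96 would then be too high.

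By mean level, mir-182 stood between features with which its libraries overlapped. The neighbours above it were mir-451 (973 ± 748 CPM), an erythroid miRNA, mir-3596 (980.3 ± 199) and pred_580 (983 ± 339), a predicted miRNA with no family name. Below it came mir-1388 (751 ± 308), mir-140 (572 ± 54.4), a cartilage miRNA, and mir-223 (568 ± 345), a miRNA of myeloid cells. Of these 6, mir-140 was the exception in that its libraries did not overlap those of mir-182. mir-183 stood among mir-454, mir-218 and mir-31 above it (210.2 to 186 CPM) and pred_770, mir-301 and mir-605 below it (174 to 166 CPM), and its libraries overlapped with all 6. The order around mir-183 is therefore not fixed at this spread.

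**Figure D2:**
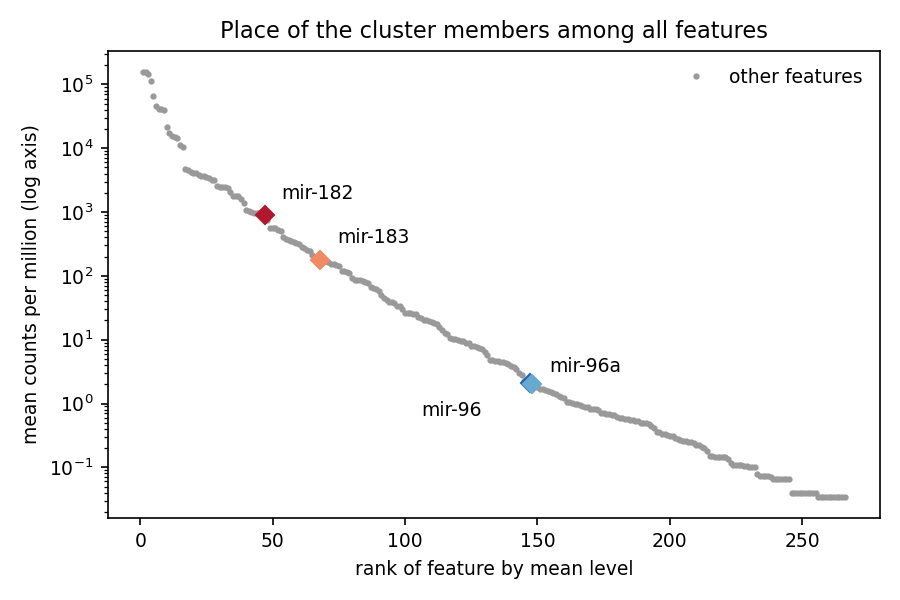
Mean CPM over the 3 libraries on a log axis against the rank of each feature with a count, with the 4 cluster members as diamonds and all other features as grey dots. mir-182 ranked 47 and mir-183 ranked 68, while mir-96 and mir-96a ranked 147 and 148, so that their diamonds nearly coincide.

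Although cluster members are known in vertebrates to be cut from a shared primary transcript, the counts of these rows were far from equal. The rows carry no locus, so whether they come from a single killifish transcript was not checked. A ratio of different miRNAs in a library carries the capture bias of the ligation-based library preparation, which favours some sequences. mir-182 made up 80.0% of the cluster counts in library 1, 86.0% in library 2 and 84.2% in library 3. mir-183 made up 19.8%, 13.5% and 15.3%, and both mir-96 rows together made up 0.244%, 0.455% and 0.485%. In mean, mir-182 held 83.4% ± 3.09, mir-183 held 16.2% ± 3.21 and the mir-96 rows held 0.394% ± 0.131 of the cluster (SD, n = 3).

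mir-182 exceeded mir-183 in every library. It had 4.05 times the counts of mir-183 in library 1 (95% interval 3.80 to 4.32), 6.35 times in library 2 (5.94 to 6.80) and 5.52 times in library 3 (5.24 to 5.82). The mean log2 ratio was 2.38 ± 0.332 (SD, n = 3). The direction was the same in 3 of 3 libraries, and the two-sided exact sign-flip permutation test gave p = 0.25, the smallest that 3 libraries allow, so this design cannot reach 0.05.

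The ratio differed between libraries by more than counting error. In Fisher's exact tests of the mir-182 and mir-183 counts, two-sided and adjusted over the 3 pairs of libraries, the ratio in library 1 was 0.637 times that in library 2 (95% interval 0.581 to 0.6995, adjusted p = 1.96e-21) and 0.734 times that in library 3 (0.676 to 0.797, adjusted p = 2.6e-13). The ratio in library 2 was 1.15 times that in library 3 (1.06 to 1.26, adjusted p = 0.0012). These p-values cover counting error only, with reads taken as independent, and they compare the libraries as sequenced, not conditions. A ratio within a library needs no scaling between libraries. The library with most mir-183 for its mir-182 was library 1, which also had the highest CPM of mir-183.

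Against the mir-96 rows the gap was larger. mir-182 had 328 times the summed counts of mir-96 and mir-96a in library 1 (95% interval 199 to 587), 189 times in library 2 (135 to 275) and 174 times in library 3 (133 to 232). With 0.5 added to each count, the mean log2 ratio was 7.76 ± 0.481 (SD, n = 3). mir-183 had 81.1 times the summed mir-96 counts in library 1 (49.0 to 145), 29.8 times in library 2 (21.0 to 43.5) and 31.5 times in library 3 (24.0 to 42.2), with a mean log2 ratio of 5.38 ± 0.795 (SD, n = 3). Both directions were seen in 3 of 3 libraries, with p = 0.25 in the exact sign-flip permutation test. The order mir-182, mir-183, mir-96 was thus the same in every library. Its gaps to mir-96 would be too wide if reads that match both mir-96 rows were left out.

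**Figure D3:**
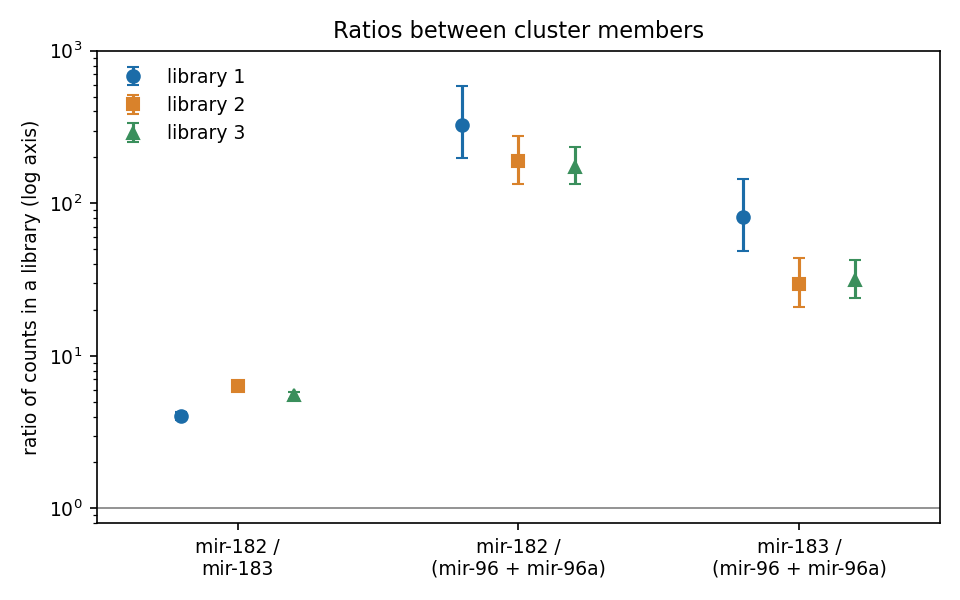
Ratios of counts between cluster members within each library on a log axis, with bars for the 95% exact interval (counting error only) and a line at a ratio of 1. mir-182 had 4.05 to 6.35 times the counts of mir-183, 174 to 328 times those of mir-96 and mir-96a together, and mir-183 had 29.8 to 81.1 times the counts of mir-96 and mir-96a together.

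A second set of exact tests, chosen after the counts had been seen, asked whether the ratios to mir-96 differed between libraries. Of the 6 tests, 2 passed after adjustment over these 6, both of mir-183 in library 1. All 6 rest on summed mir-96 counts, so if reads were entered in both rows, their p-values and intervals are too narrow. No such test was run with a single mir-96 row. The ratio of mir-183 to summed mir-96 in library 1 was 2.72 times that in library 2 (95% interval 1.43 to 5.43) and 2.57 times that in library 3 (1.42 to 4.94), with an adjusted p of 0.0033 in both Fisher's exact tests. For mir-182 against summed mir-96, library 1 exceeded library 3 by 1.89 times (1.05 to 3.61, adjusted p = 0.059, Fisher's exact test), which did not pass. Both tests between libraries 2 and 3 gave an adjusted p of 0.82, with intervals of 0.690 to 1.74 for mir-182 and 0.596 to 1.52 for mir-183 (Fisher's exact test).

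Between libraries, mir-182 and mir-183 differed by more than counting error and the mir-96 rows did not pass the test. Counts were set against library sizes scaled by TMM (trimmed mean of M-values, in edgeR), and a chi-square test with Benjamini-Hochberg adjustment was run over the whole table wherever the mean count reached 10. It called 2 of the 4 members, against 81.6% of the 158 features tested. The adjusted p, which covers counting error only and takes reads as independent, was 3.4e-75 for mir-182, 9.6e-81 for mir-183, 0.25 for mir-96 and 0.60 for mir-96a. With the filter raised to a mean count of 100, which mir-182 and mir-183 pass, 110 of 115 features were called. A call was thus the rule at their depth and does not set these members apart. Of the 43 features tested with a mean count under 100, as both mir-96 rows have, 44.2% were called. For mir-96, not passing does not show equal levels, and the wide intervals given below show which differences these counts still allow.

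The TMM-scaled level of mir-182 was 1044, 737 and 895 CPM in libraries 1, 2 and 3. Its highest library exceeded its lowest 1.42-fold (95% counting interval 1.36 to 1.47). That of mir-183 was 258, 116 and 162 CPM, a range of 2.22-fold (2.04 to 2.42). The highest and lowest library were picked from these same counts, and the intervals of ranges do not allow for that choice. Both members followed the order library 1, library 3, library 2, and mir-183 spread further; without library 1 its range was 1.40-fold. The median range over the 115 features that averaged 100 counts or more was 1.92-fold, with quartiles at 1.43 and 2.68. mir-182 lay just below the lower quartile, with 27 of these features steadier, while 77 were steadier than mir-183.

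After TMM scaling, mir-96 stood at 1.70, 1.77 and 2.82 CPM and mir-96a at 1.48, 2.13 and 2.33 CPM in libraries 1, 2 and 3. Under this scaling both were highest in library 3 and lowest in library 1, which held the highest levels of mir-182 and mir-183. Their ranges were 1.66-fold (0.741 to 4.21) for mir-96 and 1.57-fold (0.657 to 4.32) for mir-96a, and both intervals include a ratio of 1. These intervals too do not allow for the choice of the highest and lowest library. Without library 3, with TMM factors fitted anew, the range of mir-96 was 1.03-fold, with library 1 above library 2. With DESeq2 size factors library 2, not library 1, was lowest for mir-96, while mir-96a stayed lowest in library 1. The order of libraries 1 and 2 is thus not fixed for mir-96, which had 8 and 15 counts there. Library 1 over library 2 under TMM was 0.957 (0.351 to 2.41) for mir-96 and 0.698 (0.246 to 1.75) for mir-96a. For library 1 over library 2, where mir-183 differed 2.22-fold, the ratio of summed mir-96 was 0.816 (0.412 to 1.54).

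**Figure D4:**
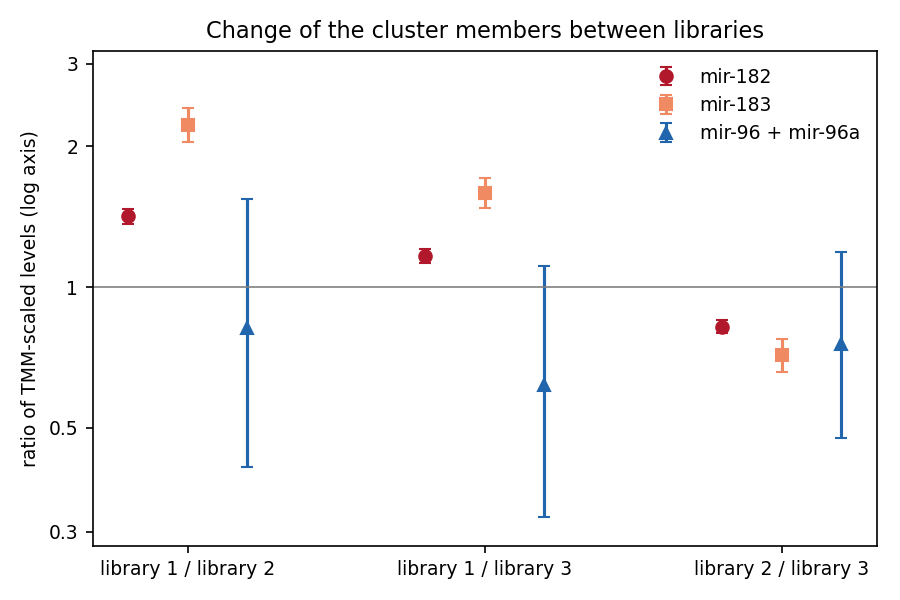
Ratio of TMM-scaled levels between each pair of libraries on a log axis, for mir-182, mir-183 and mir-96 with mir-96a summed, with bars for the 95% counting interval and a line at a ratio of 1. The intervals of mir-183 lie farther from 1 than those of mir-182 for every pair, with library 1 over library 2 at 2.22 against 1.42, while all 3 intervals of summed mir-96 include 1.

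The median feature also shifted between libraries under TMM, by -0.13 on the log2 scale for library 1 over library 2 and -0.13 for library 1 over library 3. Relative to that median over 158 features, library 1 exceeded library 2 by 1.55-fold for mir-182 and 2.43-fold for mir-183. Relative to it, library 1 exceeded library 3 by 1.28-fold for mir-182 and 1.74-fold for mir-183. These values do not depend on the scaling, since any scaling factor cancels in them. Library 1 was the highest for both members under all 3 scalings tried. With library totals, however, mir-182 in library 1 exceeded library 3 by only 0.03 on the log2 scale.

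Among the same 115 features, those whose change over the libraries was most like that of mir-182 were mir-25, mir-30, mir-181, mir-1338 and mir-34. Likeness was the root mean square distance between log2 TMM-scaled levels, each centred on its mean, over only 3 libraries, and it was 0.03, 0.08, 0.09, 0.11 and 0.14 for these features. mir-183 came at place 27, at a distance of 0.27. For mir-183 the nearest were mir-375 (0.16), a miRNA of endocrine and secretory cells, mir-146 (0.16), mir-143 (0.17), mir-181 (0.18) and mir-184 (0.22), and mir-182 came at place 8. In libraries 1, 2 and 3 the TMM-scaled level of mir-183 was 258, 116 and 162 CPM, beside 364, 132 and 240 CPM of mir-375. By this distance, which also counts the size of the change, the cluster partner was not the nearest profile of either member. The centred log2 levels in libraries 1, 2 and 3 were 0.24, -0.26 and 0.02 for mir-182. Those of mir-183 were 0.61, -0.55 and -0.06, a wider change in the same order of libraries.

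Other pairs of miRNAs known from shared transcripts give a rough scale for the unequal levels. Rows are names without a locus, so a row may pool copies from several transcripts. These ratios therefore need not compare products of 1 transcript. Of 15 such pairs listed beside the cluster, 10 had both members in the table. Their geometric mean ratios ran from 1.87-fold for mir-16 over mir-15 to 41.9-fold for the most unequal. Of the 10, 3 were less unequal than mir-182 over mir-183, with its geometric mean of 5.22-fold. With 0.5 added to each count, the geometric mean of mir-182 over summed mir-96 was 217-fold, above all 10 pairs. That of mir-183 over summed mir-96 was 41.6-fold, close to the most unequal pair. The ratio of mir-182 to mir-183 varied 1.57-fold between its highest and lowest library, against a median of 1.69-fold over the 10 pairs. Of these, 4 varied less and 6 varied more. The steadiest was mir-27 over mir-24, at 39.9, 42.1 and 41.9 in libraries 1, 2 and 3, and the most variable was mir-216 over mir-217, at 28.7, 7.46 and 17.2, where mir-217 had as few as 93 counts. Unequal levels were seen in all 10 other pairs as well.

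**Figure D5:**
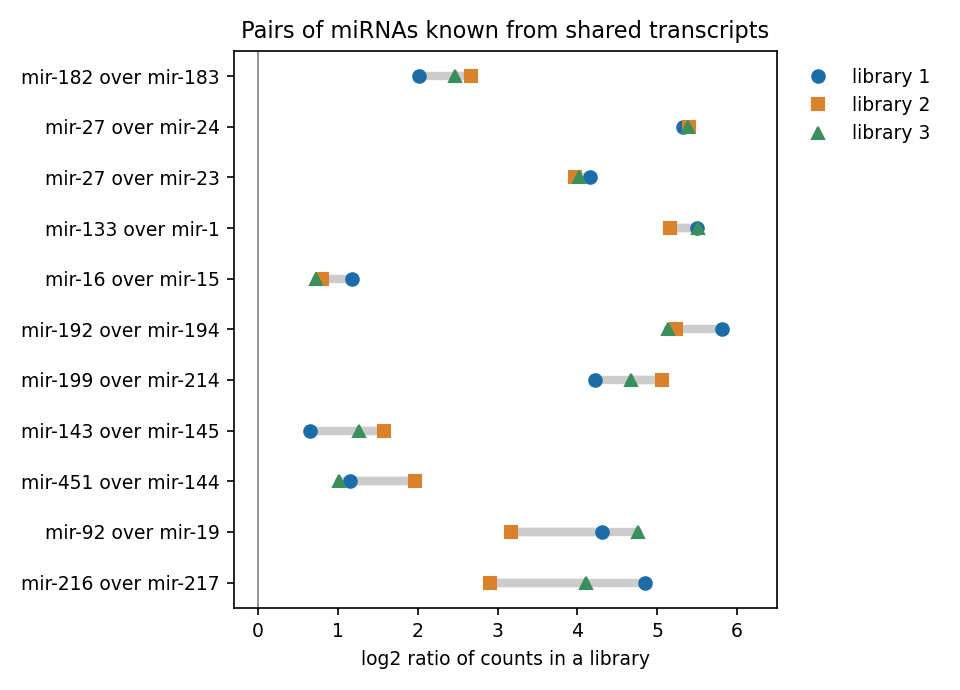
The log2 ratio of counts within each of the 3 libraries for mir-182 over mir-183 (top) and for 10 other pairs of miRNAs known from shared transcripts, ordered downward by their SD over libraries; grey bars span the 3 libraries. mir-182 over mir-183 spans 2.02 to 2.67, wider than mir-27 over mir-24 and narrower than mir-216 over mir-217.

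Other miRNAs reported from sensory organs were detected, but none of those listed here could mark sensory cells by itself. A list of 14 other miRNAs reported from ear, lateral line, eye or olfactory organ had 11 names in the table, of which mir-200 was listed at 0 in every library. Since mir-8 is the fly name of the miR-200 family, whose reads may stand in that row, this 0 does not show a low level of miR-200. The row mir-8 had 4059 ± 949 CPM (SD, n = 3). Against the level of mir-182, 6 were higher in every library and 5, the row mir-200 included, were lower in every library. Those above were mir-15, mir-30, mir-199, mir-204, mir-184 and mir-8, all of which are also made in other tissues. By mean CPM, the closest of these to mir-182 was mir-15, at 1.07, 2.25 and 1.53 times its level in libraries 1, 2 and 3. Those below were mir-216 (280 ± 218 CPM), mir-9 (57.4 ± 15.0), mir-217 (15.5 ± 4.63) and the neuronal mir-124 (3.82 ± 1.54), which had 19, 46 and 22 counts. All 10 of the list that reached the filter differed between libraries in the chi-square test, beside the 81.6% given above for all features tested. The label of the cluster as one of sensory organs could not be checked against markers of its own, since each of these miRNAs that was detected is known from other tissues too.

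Markers of other cell types also differed between libraries by more than counting error, as did most features of the table. The chi-square test called 4 of the 5 neuronal markers and every marker of the other lists. Beside these stand the 81.6% of all features tested, and 110 of 115 with the filter at a mean count of 100. The order of the libraries was not the same for all markers. The 5 neuronal miRNAs (mir-124, mir-9, mir-128, mir-138 and mir-218), all detected, took 0.140%, 0.243% and 0.272% of counts in libraries 1, 2 and 3. Most of that sum was mir-128, at 1027, 2010.3 and 2270.2 CPM, while mir-124 was lowest in library 3, at 3.78, 5.38 and 2.29 CPM, and mir-218 did not pass the chi-square test (adjusted p = 0.72). The endocrine miRNAs mir-375 and mir-7 together took 0.0349%, 0.0141% and 0.0265%. Of these, mir-375 was highest in library 1 and lowest in library 2, as mir-183 was, at 342, 131 and 257 CPM, but mir-7 ran the other way, at 6.57, 9.95 and 7.30 CPM. The epidermal pair mir-205 and mir-203 took 5.99%, 6.75% and 8.23%. The 3 striated muscle miRNAs took 1.64%, 0.667% and 2.23%, the erythroid pair 0.113%, 0.226% and 0.0509%, and the 4 leukocyte miRNAs 0.475%, 0.5005% and 0.458%. That near-even leukocyte sum held mir-142 at 1250.5, 2395 and 1170.1 CPM and mir-223 at 341, 965 and 397 CPM, both highest in library 2, beside mir-146 at 3089, 1554 and 2894 CPM, lowest there. No marker of these lists was at 0 in any library. Their part in the lower level of mir-182 and mir-183 in library 2 was not tested.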

How the data were processed

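Small RNA from skin was sequenced in 3 libraries of 1 group, prepared with Illumina's TruSeq kit for small RNA, as stated per the labels' protocols. The authors deposited raw read counts per miRNA name, as whole numbers, with a column for each library and no normalization or pooling. Per the submitters' processing notes, which give no role or settings, BWA 0.7.12-r1039, SAMtools 1.3.1-9, bcl2fastq 1.8.4 and Trimmomatic 0.36 were used. Not given in the sources used here are the genome build, the miRNA annotation and how reads with several matches were treated. Names carry no arm, and no miRNA sequences or coordinates were used here.

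Library totals were 5021238, 8545292 and 9590428 counts, with TMM factors of 0.940, 0.991 and 1.07 from edgeR 4.0.16. CPM and shares use unscaled totals. Intervals are 95% exact (Clopper-Pearson), and those of ratios come from the share of the first count in the sum of both. Intervals cover counting error only, since PCR copies cannot be recognised without molecular identifiers, which the labels do not mention. The chi-square test took every feature averaging 10 counts or more and a threshold of 0.05 on the Benjamini-Hochberg adjusted p. It compares libraries, and its p-values, like those of Fisher's exact tests, cover counting error only. With 1 group there was no contrast for a quasi-likelihood test.

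Features named beside the members were the 3 on each side in mean level, the 5 nearest in profile, and fixed lists of sensory miRNAs, cell type markers and pairs from shared transcripts. Members and lists were chosen with earlier results of these data known. Alternatives tried were scaling by library totals or by size factors of DESeq2 1.42.0, other denominators, count filters, pseudocounts, the mir-96 rows taken singly, and each library left out. Software was Python 3.11.15 with scipy 1.17.1, pandas 2.3.3, numpy 2.4.6 and matplotlib 3.10.9, and R 4.3.3.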

Additional observations from a re-analysis of the deposited data

How the results depend on the processing

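No paired analysis was possible because the series has a single group of libraries. The range of mir-182 was 1.58-fold with DESeq2 size factors and 1.34-fold with library totals, against 1.42-fold. That of mir-183 was 2.47-fold with DESeq2 size factors, against 2.22-fold. Library 1 was highest for both under each scaling, although with library totals mir-182 was nearly level in libraries 1 and 3. Each library was also left out in turn, with TMM factors fitted anew to the remaining libraries. This gave ranges of 1.17 to 1.53 for mir-182, 1.40 to 2.40 for mir-183, 1.03 to 1.66 for mir-96 and 1.10 to 1.57 for mir-96a. A range over fewer libraries tends to be smaller. The upper ends for mir-182 and mir-183 came without library 3, where the new TMM factors widened the ranges. Without library 1, mir-183 varied 1.40-fold, and without library 2 1.59-fold. The cluster share was 0.0995% to 0.118% with each library left out, and 0.127% when the total excluded mir-204, the feature with the highest mean CPM. The log2 ratio of mir-182 over mir-183 was 2.24 to 2.57 with each library left out, and all ratios stayed positive under every pseudocount tried and with mir-96 or mir-96a alone. Neither mir-96 row passed the chi-square test under any alternative that tested it, and mir-182 and mir-183 passed under all of them. Depth limits the rows mir-96 and mir-96a, whose counts of 7 to 29 per library leave wide intervals.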
